A study of Homo sapiens with 27 samples.

Results

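VMP1 is a protein-coding gene on the plus strand of chromosome 17 (gene ID 81671, 59707654 to 59842255 on GRCh38, 134602 bases), and the microRNA gene MIR21 (gene ID 406991, 59841266 to 59841337) lies inside its last kilobase on the same strand. These 2 genes, of 59792 genes with a position in RefSeq, were followed across 27 libraries of transposon insertions. VMP1 was chosen by its number of insertion sites in the piggyBat libraries, the second highest of any gene there, so its site number is given as a description without a test. Insertions in VMP1 were compared with those in the stretch of equal length on either side.

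VMP1 encodes a membrane protein of the endoplasmic reticulum that is needed for autophagosome formation, the step in which a cell encloses its own material for breakdown. MIR21 encodes miR-21, an abundant microRNA in many carcinomas that lowers the output of target mRNAs through its seed. piggyBac and piggyBat are cut-and-paste DNA transposases, the former from a moth and the latter from a bat, and both insert at the tetranucleotide TTAA.

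All libraries came from HCT116, an established human colorectal carcinoma line, transfected with a self-reporting transposon, whose own promoter transcribes into the flanking genome so that an insertion can be read from RNA. Transfected cells were kept in puromycin at 3 µg/ml for 2 weeks. The labels define 9 groups of 3 replicates. WT_PBat is a wild-type transposon with piggyBat. In the other groups whose name starts with WT the wild-type transposon met a piggyBac transposase, which was unmodified in WT_PB, hyperactive in WT_hyPB, re-engineered in WT_rePB and both re-engineered and hyperactive in WT_rehyPB. The short transposon met wild-type piggyBac in short_PB and its hyperactive form in short_hyPB. The symmetric transposon met the re-engineered transposase in sym_rePB and the one that is also hyperactive in sym_rehyPB. The labels do not spell out the changes behind the words re-engineered, short and symmetric, and do not say whether replicates were separate transfections, so the spread between replicates may be technical.

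A site is the first base of the 4-base target at the 5′ edge of a peak, counted once per library. The 12 libraries of wild-type transposon and piggyBac variants held 336333 to 570362 sites and are called deep, whereas the 12 short and symmetric libraries held 2814 to 9212 and are called shallow. WT_PBat held 6902 to 8873 sites, so its tests were made against the 12 shallow libraries. Those come from 4 groups that differ in transposon or transposase, and the permutation tests treated the libraries as exchangeable. Their p-values do not measure the spread between transposon systems. By the labels, WT_PBat differs from each shallow group in both transposon and transposase, and these cannot be told apart. Of 267 WT_PBat sites that fell in a RefSeq promoter window, 97.4% were on TTAA. WT_PBat replicates 1 and 3 shared many positions: 52.5% of all sites of replicate 1 were also in replicate 3, against 9.23% in replicate 2. These libraries may not be independent, and the results that rest on them are also given with replicates 1 and 3 averaged or left out.

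The sequence at the end of VMP1 around which the sites turned out to gather is that of MIR21, printed from RefSeq (GRCh38.p14). The mature microRNA occupies chr17:59841273-59841294 on the plus strand, with its seed, bases 2 to 8, in capitals. In the hairpin, chr17:59841266-59841337, the mature part is in capitals. The VMP1 promoter window, chr17:59707404-59707703 on the plus strand, covers 250 bases before the start of the gene and 50 after it, and is shown as the opposite end of the gene. Capitals would mark TTAA there.
hsa-miR-21-5p: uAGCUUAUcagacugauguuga
MIR21 hairpin: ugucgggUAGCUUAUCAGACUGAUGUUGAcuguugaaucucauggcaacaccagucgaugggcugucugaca
VMP1 promoter: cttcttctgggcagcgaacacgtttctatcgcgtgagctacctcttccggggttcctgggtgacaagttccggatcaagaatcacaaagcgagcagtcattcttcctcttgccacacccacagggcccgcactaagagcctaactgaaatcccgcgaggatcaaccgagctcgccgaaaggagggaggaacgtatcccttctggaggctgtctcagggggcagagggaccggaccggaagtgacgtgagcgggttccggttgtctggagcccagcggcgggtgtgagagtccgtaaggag

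Neither the hairpin nor the VMP1 promoter window held a TTAA, whereas 46.1% of 34943 RefSeq promoter windows of this length did. TTAA reads the same on both strands. No site of any of the 27 libraries lay inside the MIR21 hairpin. A single site, of height 10 in WT_rehyPB replicate 3 (59707535), lay in the VMP1 promoter window.

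VMP1 carried 29, 18 and 27 sites in WT_PBat replicates 1, 2 and 3. Relative to all sites of the library these were 40.4, 26.1 and 30.4 sites per 10000, a density of 32.3 ± 7.33 (SD, n = 3). On this scale the symmetric transposon gave densities as high, 36.2 ± 5.68 in sym_rePB and 33.1 ± 6.76 in sym_rehyPB (n = 3 each), and the values of both groups overlapped those of WT_PBat. Lower densities were seen in short_hyPB, 21.02 ± 6.39, and in short_PB, 13.5 ± 3.79 (n = 3 each). The lowest WT_PBat library lay below the highest short_hyPB library, at 28.2, and above all short_PB libraries. The order depends on the denominator: per 1000000 of the constant taken as the library's total reads, VMP1 had 157.6 ± 35.7 sites in WT_PBat (126.2 to 196.5) against 58.1 ± 13.3 in sym_rehyPB and 45.001 ± 5.19 in sym_rePB (n = 3 each), with no overlap. In the deep groups VMP1 density per 10000 sites ranged from 3.83 ± 0.03 in WT_rePB to 4.60 ± 0.08 in WT_hyPB, with WT_PB at 4.34 ± 0.42 and WT_rehyPB at 4.56 ± 0.25 (n = 3 each).

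VMP1 stood second of 5210 genes with a site in WT_PBat, behind PCDH7, a long protocadherin gene that was first in all 9 groups. It ranked 8 to 11 in the 4 shallow piggyBac groups, with 2348 to 6020 such genes, and 39 to 73 in the deep ones, with 16278 to 16946. Per kilobase, among genes longer than 20 kb with a site, VMP1 ranked 11 of 4115 in WT_PBat, 4 of 1938 in sym_rePB and 5 of 2394 in sym_rehyPB. Since these lists differ in length, the ranks show no change between groups. In a limma fit over the 15 shallow libraries, the site share of VMP1 in WT_PBat exceeded the mean of the 4 shallow piggyBac groups by 0.40 ± 0.21 (log2, SE). It is given without a p-value because it rests on the WT_PBat site number that chose the gene. When the deep libraries were limited to peaks of height 100 or more, VMP1 density rose to between 28.6 ± 7.21 in WT_rehyPB and 42.1 ± 6.41 in WT_rePB (n = 3 each), so its density in any list depended on the peak heights admitted.

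**Figure D1:**
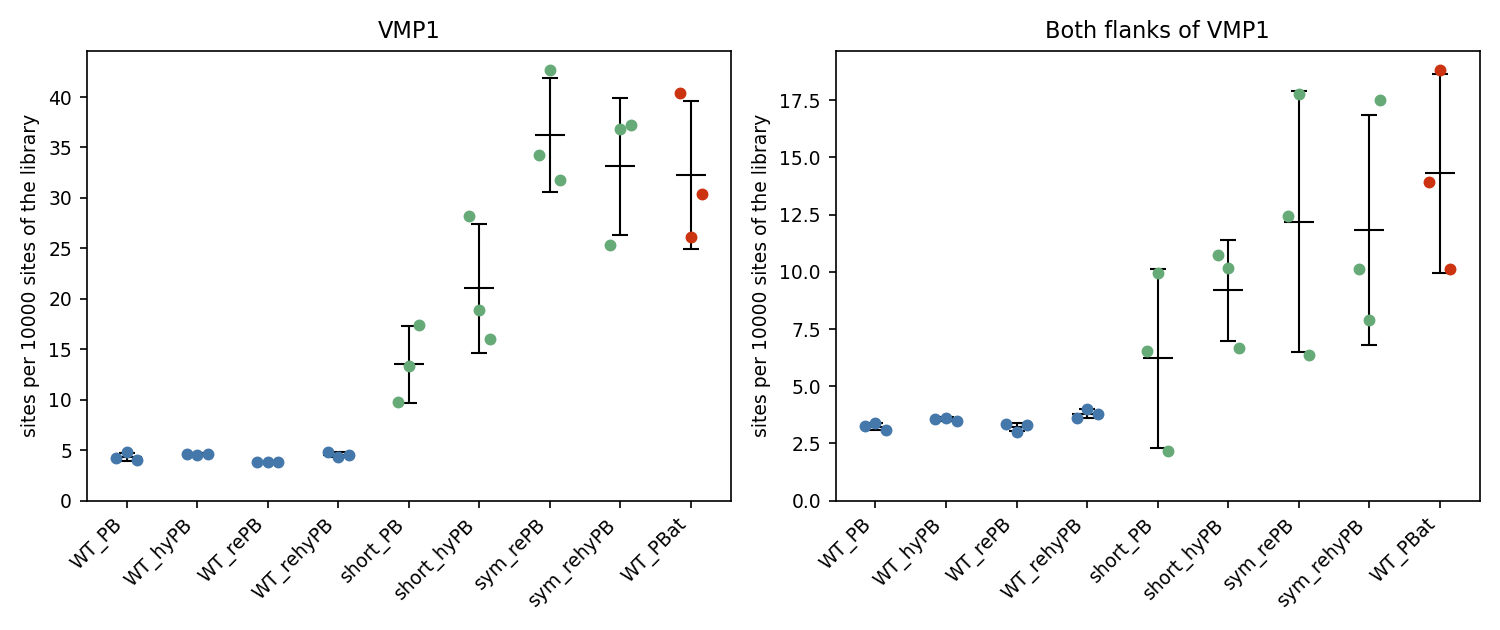
Sites per 10000 sites of each library inside VMP1 (left) and in both flanks together (right), for the 9 groups; points are libraries, horizontal bars the mean and SD of 3. WT_PBat lies at 26.1 to 40.4 in VMP1, within the range of the sym_rePB and sym_rehyPB libraries, and the deep groups lie under 5.

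The flanks lie outside the interval that chose VMP1, so their density was tested. The upstream flank holds DHX40, an RNA helicase gene, CLTC, the clathrin heavy chain gene, and PTRH2, a mitochondrial peptidyl-tRNA hydrolase gene that runs away from VMP1 on the minus strand. The downstream flank holds TUBD1, the delta-tubulin gene, RPS6KB1, the gene of the S6 kinase, and RNFT1. Flank density was 13.9, 18.8 and 10.1 sites per 10000 in the WT_PBat replicates and 2.17 to 17.8 in the 12 shallow piggyBac libraries. The means, 14.3 ± 4.36 (n = 3) and 9.86 ± 4.53 (n = 12), differed by 4.44, with overlapping values (two-sided exact permutation test, p = 0.154, Benjamini-Hochberg adjusted over 5 measures 0.192).

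More of the WT_PBat flank sites lay downstream than upstream in each library, at 8.35, 14.5 and 10.1 per 10000 against 5.57, 4.35 and 0. Most of the downstream sites were in the space between VMP1 and TUBD1 and not in the neighbouring genes. Over the 3 WT_PBat libraries together, CLTC held 3 sites, PTRH2 2, TUBD1 2, RPS6KB1 1, and DHX40 and RNFT1 0. CLTC was the single flank gene with enough sites to be tested, and its site share differed by 0.11 ± 0.60 (log2, SE; limma, Benjamini-Hochberg adjusted p = 0.908), a value whose sign changed with the prior count, with centring and when any of 3 piggyBac libraries was left out.

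The place of the sites inside VMP1 set WT_PBat apart. On a scale from 0 at the start of VMP1 to 1 at its end, the mean position was 0.817, 0.824 and 0.793 in WT_PBat replicates 1, 2 and 3. In the 12 shallow piggyBac libraries it ranged from 0.564 to 0.731 with a median of 0.641. All 3 WT_PBat libraries thus lay closer to the MIR21 end than every shallow piggyBac library. The difference of means was 0.166 (two-sided exact permutation test of 3 against 12 libraries, p = 0.0044, the smallest this design can give, adjusted 0.011). With WT_PBat replicates 1 and 3 averaged, or with any 1 WT_PBat library left out, the difference was 0.160 to 0.175 and the adjusted p of 0.0549 missed the threshold of 0.05 (exact permutation test).

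Counting the VMP1 sites within 20 kb of MIR21 gave the same separation. In WT_PBat these were 21 of 29 sites in replicate 1 (72.4%, 95% Wilson interval 54.3 to 85.3), 11 of 18 in replicate 2 (61.1%, 38.6 to 79.7) and 19 of 27 in replicate 3 (70.4%, 51.5 to 84.1). The 12 shallow piggyBac libraries ranged from 22.2% to 50%, with a median of 37.8%, and did not reach the lowest WT_PBat library. The means of 68.0% ± 6.02 (n = 3) and 37.1% ± 7.60 (n = 12) differed by 30.9 percentage points (exact permutation test, p = 0.0044, adjusted 0.011). With WT_PBat replicates 1 and 3 averaged into 1 library, the difference was 29.2 points, and the adjusted p of 0.0549 missed the threshold of 0.05 in a test of 2 against 12 whose smallest unadjusted p is 0.022. Leaving out any 1 WT_PBat library gave the same adjusted p, with differences of 28.7 points without replicate 1, 34.3 without replicate 2 and 29.7 without replicate 3.

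No single piggyBac group reached the WT_PBat share. The group means were 36.6% ± 13.9 in short_PB, 34.1% ± 3.72 in short_hyPB, 39.6% ± 6.07 in sym_rePB and 38.0% ± 6.99 in sym_rehyPB (n = 3 each). Lower shares were found in the deep groups, from 26.4% ± 1.14 in WT_rePB and 27.2% ± 1.69 in WT_rehyPB to 29.6% ± 1.48 in WT_hyPB and 30.1% ± 2.01 in WT_PB (n = 3 each). WT_PBat did not overlap any of the 8 groups, but each test of 3 against 3 could reach no lower than an exact p of 0.1 (adjusted over 40 tests, 0.148). Restricting the deep lists to peaks of height 100 or more, which brought VMP1 density near that of WT_PBat, gave group shares of 36.6% to 38.7% near MIR21, still below the 61.1% of the lowest WT_PBat library.

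**Figure D2:**
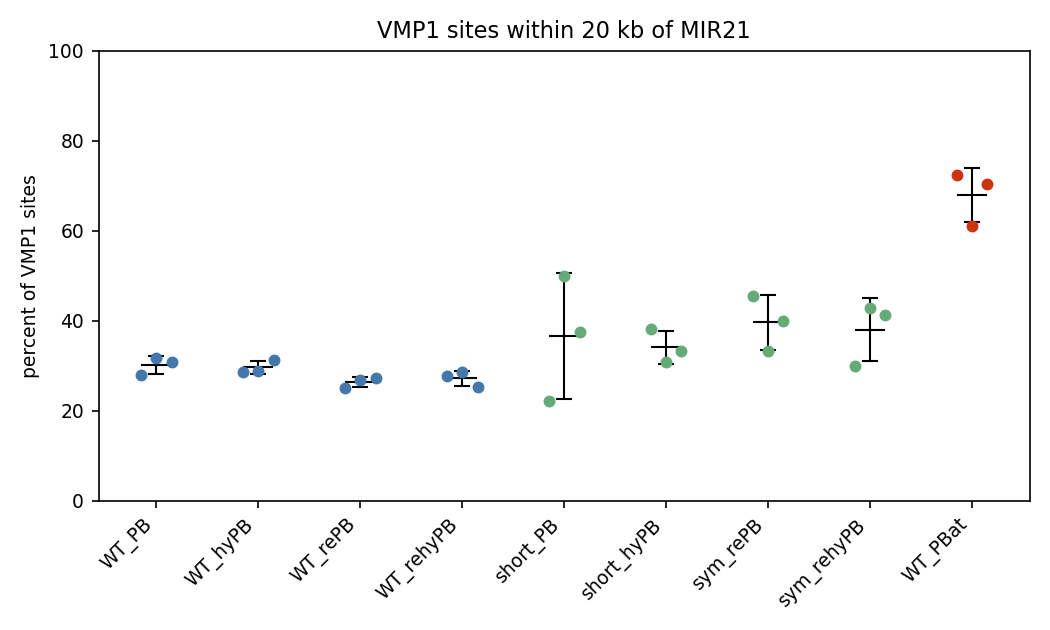
Percent of the VMP1 sites of each library that lie within 20 kb of MIR21, by group; points are libraries and bars the mean and SD of 3. The WT_PBat libraries lie at 61.1% to 72.4%, above all 24 piggyBac libraries, of which the highest is short_PB replicate 2 at 50%.

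The densities behind these shares differed near MIR21, and in the rest of VMP1 the order depended on the shallow group. Within 20 kb of MIR21, VMP1 carried 29.2, 15.9 and 21.4 sites per 10000 in WT_PBat, and 2.17 to 15.8 in the shallow piggyBac libraries, so the groups did not overlap, by a narrow margin at WT_PBat replicate 2. Over the rest of VMP1 the values were 11.1, 10.1 and 9.02 in WT_PBat, inside the shallow piggyBac range of 6.65 to 28.4. They overlapped short_PB (6.65 to 10.9) and short_hyPB (10.7 to 17.5). All WT_PBat libraries lay below all those of sym_rePB (18.7 to 28.4) and sym_rehyPB (17.7 to 21.9). Against the symmetric groups, the higher share near MIR21 thus went with fewer sites elsewhere in VMP1 as well. These densities are part of the site number that chose VMP1 and are given without a test. An excess at one place raises the site number and the positional measures alike, so the positional tests are not fully independent of the choice of the gene.

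When VMP1 was split into 10 equal bins of 13.5 kb, the last bin, which contains MIR21, held 69.0%, 61.1% and 63.0% of the WT_PBat sites. This region was chosen after its values were seen. The shallow piggyBac libraries put 27.3% ± 10.3 (n = 12) of their VMP1 sites there and nearly as many in the fourth bin, 26.8% ± 8.05, and in the sixth bin, 24.8% ± 10.6. WT_PBat put 6.62% ± 0.96 in the fourth bin and 11.6% ± 4.90 in the sixth (n = 3). The deep libraries were spread more evenly, with 21.5% ± 2.26 in the last bin, 17.01% ± 1.69 in the sixth and 14.6% ± 1.61 in the fourth (n = 12). The first 3 bins, which follow the VMP1 promoter, held 4 of the 74 WT_PBat sites. This was not particular to WT_PBat, since the shallow piggyBac libraries had 2, 0 and 2 of their 157 VMP1 sites in these bins. The deep libraries had 100, 82 and 80 of 2256.

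**Figure D3:**
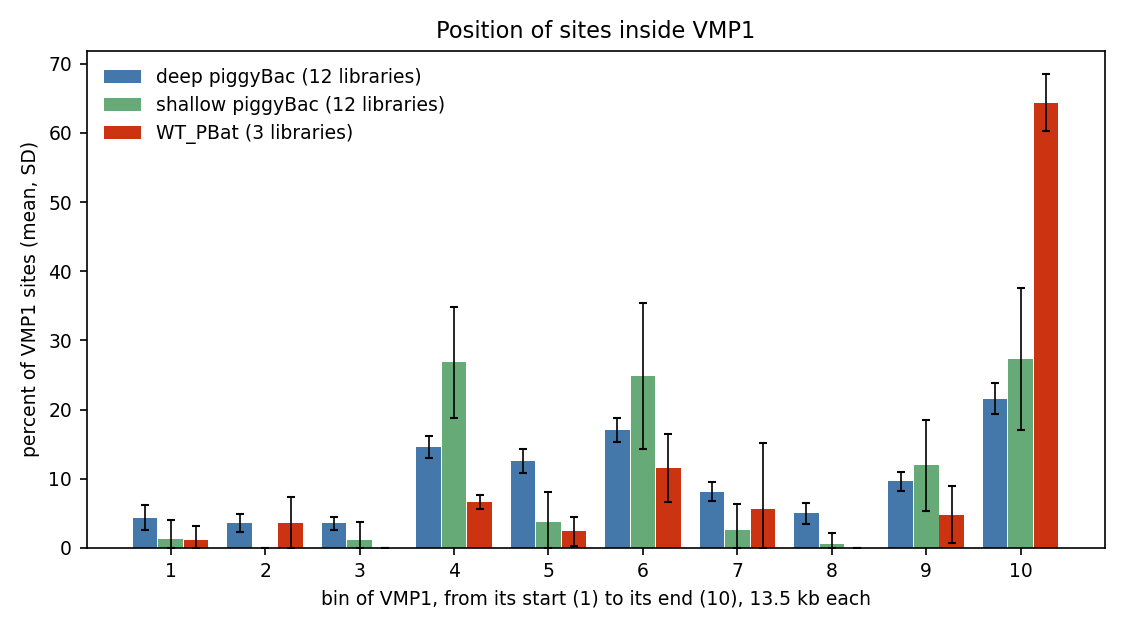
Percent of VMP1 sites in each of 10 equal bins of the gene, from its start (1) to its end (10); bars are means over the 12 deep piggyBac, 12 shallow piggyBac and 3 WT_PBat libraries, with SD. WT_PBat has one tall bar, 64.3% in the last bin, where the piggyBac sets have 27.3% (shallow) and 21.5% (deep).

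A shift of this size was not particular to VMP1. Among 16 genes with a mean of at least 5 sites per library in both sets, the difference in mean position of VMP1 was the fifth largest. Larger differences were found in PPP3CA (0.196), ZBTB20 (-0.185), MTHFD1L (-0.180) and ARHGAP18 (0.172), the first and last towards the high coordinate as in VMP1. These genes were not tested. In PCDH7, the gene with the most sites, the difference was 0.06.

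The WT_PBat sites continued past the end of VMP1. In the genome cut into windows of 5 kb, the window 59835001 to 59840000 ranked 3 of 14312 windows with a site in WT_PBat, at 12.3 sites per 10000. The next window, 59840001 to 59845000, which holds MIR21 and the end of VMP1, ranked 5, at 10.6. In the 4 shallow piggyBac groups the former held 2.93 to 8.81 and the latter 1.83 to 3.29 sites per 10000, and in the deep groups 0.301 to 0.480 and 0.229 to 0.357. Distance bands around MIR21 differed in width, and their values were not scaled by it. The band from 2501 to 5000 bases before MIR21 held the most WT_PBat sites. It had 8.40 ± 1.51 per 10000 (n = 3) against 3.75 ± 1.97 in the shallow piggyBac libraries (n = 12). The narrower band of 0 to 1000 bases had 3.09 ± 2.18 in WT_PBat on each side of MIR21 (n = 3), so these values place no peak at 1 distance. Between 5001 and 10000 bases after MIR21 WT_PBat had a single position, listed in replicate 2 alone, or 0.48 ± 0.84 per 10000 (n = 3). The shallow piggyBac libraries had 1.28 ± 1.33 there (n = 12), with overlapping values.

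Right beside MIR21, WT_PBat had sites where the shallow piggyBac libraries had none. Within 1 kb of the hairpin, a distance chosen after its values were seen, WT_PBat replicates 1, 2 and 3 listed 8, 2 and 4 sites. The 12 shallow piggyBac libraries listed 0 among 70769 sites. With 3 sites as the limit, this pooled number allows up to 0.424 per 10000, but it treats sites of 4 groups as 1 sample. By the same limit a single shallow library allows 3.26 to 10.7 per 10000. WT_PBat had 6.18 ± 4.37 (n = 3), from 2.90 to 11.1, which overlaps that range, and the difference was not tested. The deep piggyBac libraries did list sites there, 83 among 5272110, or 0.161 ± 0.059 per 10000 (n = 12). The nearest positions were the same in WT_PBat and the deep libraries, 122 bases before the hairpin (59841144, in 3 WT_PBat and 4 deep libraries) and 44 bases after it (59841381, in 2 and 11). In the shallow piggyBac libraries the nearest were 1842 bases before and 1041 bases after.

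The same positions recurred between WT_PBat libraries. VMP1 had 45 distinct WT_PBat positions, of which 10 were listed in all 3 libraries, 9 in 2 and 26 in 1. Thus 22.2% of VMP1 positions were in all 3 libraries, where the share over all 18271 WT_PBat positions was 2.78%. Replicates 1 and 3, which share sites throughout the genome, shared 17 VMP1 sites. Replicate 2, which shares few sites with them elsewhere, had 11 of its 18 VMP1 sites in replicate 1 (61.1%, against 9.61% of all its sites). Of the 10 positions in all 3 libraries, 9 lay within 20 kb of MIR21 and 8 within 5 kb. VMP1 was chosen for its many WT_PBat sites, and more sites in each library give more shared positions. These shares are therefore descriptions, were not tested, and were not set beside those of other densely hit genes. Positions in VMP1 recurred in the 12 shallow piggyBac libraries as well, 59786356 in 11 and 59837245 in 10.

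The tallest of these positions was 59839390 on the minus strand, 1876 bases before MIR21, with peak heights of 39, 65 and 47 in replicates 1, 2 and 3. Height is the largest read coverage in the peak, and the median height over all sites was 7 in each WT_PBat library. At 59838667, 2599 bases before MIR21, the heights were 24, 31 and 45. At 59838071 they were 31, 10 and 46, and at 59839172 they were 30, 29 and 16. These 4 positions are all on the minus strand, between 3195 and 1876 bases before MIR21. They were picked for their heights, which were all above the library median. The tallest VMP1 peak of replicate 1 was elsewhere, at 59825555 on the plus strand, 15711 bases before MIR21. Its height was 45 there and 24 in replicate 3, and replicate 2 did not list it.

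Recurrent positions of lower height surrounded them. The minus-strand position nearest to MIR21, 59841144, had heights of 12, 13 and 11, and the minus-strand position 59832971, 8295 bases before MIR21, had 11, 19 and 13. Between MIR21 and the end of VMP1, 59842005 was listed on the plus strand at 19, 15 and 22, and on the minus strand in replicates 2 and 3 at 6 and 8. The only recurrent position far from MIR21 was 59786715 on the plus strand, in the sixth bin of VMP1, at 17, 7 and 15. Just past VMP1, the positions 59842378 (minus strand, 17, 38 and 31) and 59843459 (plus strand, 10, 12 and 20) were also in all 3 libraries, as were 59845831 and 59845966.

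**Figure D4:**
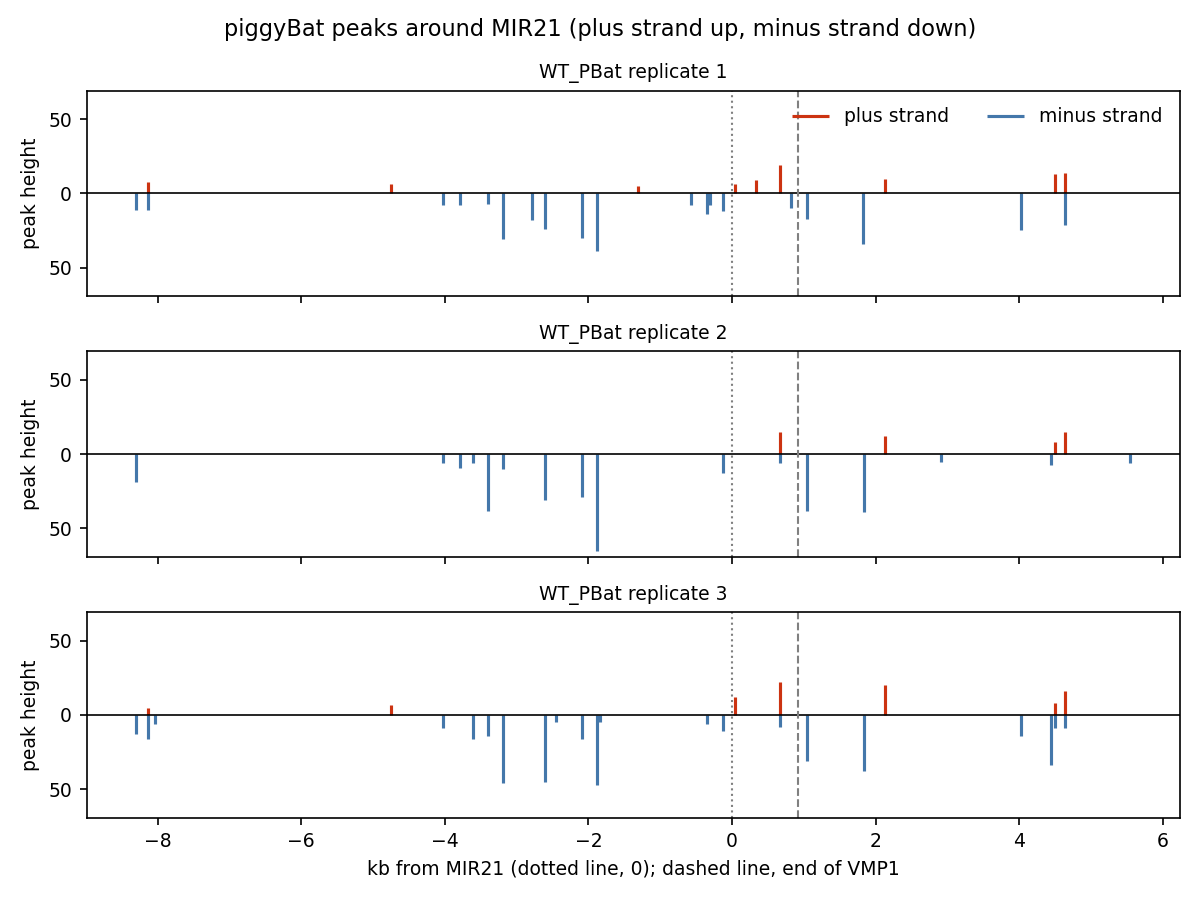
Heights of the WT_PBat peaks from 9 kb before to 6 kb after MIR21, one panel per replicate, with plus-strand peaks drawn upwards and minus-strand peaks downwards; the dotted line marks MIR21 and the dashed line the end of VMP1. The tall minus-strand peaks about 2 to 3 kb before MIR21 stand at the same places in the 3 replicates, the tallest at 39, 65 and 47.

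Most positions listed with piggyBat were also listed with piggyBac. Of the 45 VMP1 positions, 38 (84.4%) were listed in at least 1 deep piggyBac library, where the share over all WT_PBat positions was 71.5%. In the shallow piggyBac libraries 14 of them were listed (31.1%, against 16.5% overall). All 10 recurrent positions were in a deep library and 5 were in a shallow one. Listing may understate use in the deep libraries, because a site inside a longer peak of the same strand has no edge of its own. A covering peak does not show that the position itself was used. The position 59839390 was listed in 1 deep library, yet all 12 had a same-strand peak that covered it.

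The shallow lists, with a median VMP1 peak width of 82 bases, were less affected. In them 59832971, 59837863, 59839172 and 59841144, each in all 3 WT_PBat libraries, had no covering peak of that strand in any of 12. The converse held for 59755421, on the minus strand in 8 of 12 shallow piggyBac libraries with heights of 5 to 24, and for 59750617, in 6 of 12 at 7 to 33. Both lie in the fourth bin of VMP1, and no WT_PBat library had a peak that covered either. Other positions were common to both sets: 59837245, 4021 bases before MIR21, was in 10 shallow piggyBac, 11 deep and 3 WT_PBat libraries. The position 59839306, in 8 shallow libraries and 0 WT_PBat lists, was covered by a same-strand peak in all 3 WT_PBat libraries, so its absence from those lists is not informative.

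The strand of the sites was compared next. Over VMP1 as a whole, plus-strand sites, those in the direction of the gene, were 29.3%, 30.6% and 22.2% of the WT_PBat sites, and 20% to 42.3% in the shallow piggyBac libraries. The means of 27.4% ± 4.50 (n = 3) and 31.3% ± 7.29 (n = 12) differed by -3.92 points, with overlapping values (exact permutation test, p = 0.391, adjusted 0.391). With peaks of height 10 or more alone, the difference was -22.2 points (adjusted p = 0.044, exact permutation test), so the call depended on the height admitted. In the genome as a whole the plus-strand share was 48.9% to 50.4% in WT_PBat.

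The strand shares differed along the gene. In all strand shares and counts, a site listed on both strands counted 0.5 to each strand. In the 20 kb before MIR21, 38 of 44 WT_PBat sites, summed over the 3 libraries, were on the minus strand, against VMP1, and so were 54 of 59 in the shallow piggyBac libraries. The deep libraries had 34.1% plus-strand sites there. Between MIR21 and the end of VMP1 the plus-strand sum was 5 of 7 WT_PBat sites. In the deep libraries the plus-strand share there was 66.3%, while the shallow piggyBac libraries listed 0 sites. The WT_PBat sum rests on few positions, and 59842005 was on both strands in replicates 2 and 3. The next recurrent position, 59842378 just past VMP1, was on the minus strand in all 3 WT_PBat libraries. More than 20 kb from MIR21, the plus-strand share was 39.1% in WT_PBat, 45.4% in the shallow and 39.6% in the deep libraries. These shares were not tested.

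VMP1 peaks were taller than the other peaks of the same library in all 3 WT_PBat libraries. The median VMP1 height was 10, 9.5 and 12 in WT_PBat replicates 1, 2 and 3, a log2 ratio to the other sites of 0.51, 0.44 and 0.78. The ratio was 0.00 to 0.66 in the shallow piggyBac libraries. The means of 0.58 ± 0.18 (n = 3) and 0.26 ± 0.24 (n = 12) differed by 0.32 with overlapping values, 2 shallow libraries reaching into the WT_PBat range (exact permutation test, p = 0.0615, adjusted 0.103). The deep libraries had a ratio of 0.50 ± 0.10 (n = 12).

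Genes that act with VMP1 or under miR-21 were rarely hit often enough to be tested. In the limma fit, 1095 genes were tested in all; 10.7% had a higher site share in WT_PBat than in the shallow piggyBac groups and 10.6% a lower one, at an adjusted p under 0.05. Of 35 autophagy genes, 1 was tested, ATG7, the E1-like enzyme of the ubiquitin-like conjugations in autophagy. It held 5, 3 and 1 sites in the WT_PBat libraries and 0 to 2 in the shallow piggyBac ones, where 2 of 12 had any. It was higher in WT_PBat by 1.79 ± 0.49 (log2, SE; limma adjusted p = 0.0092). Without replicate 1 or replicate 2 of WT_PBat it fell under the filter and was not tested. With 3 sites over the 12 shallow piggyBac libraries, ATG7 passed the filter of 10 sites only through WT_PBat, so the test depends on its outcome and supports nothing.

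Of 14 genes commonly given as miR-21 targets, the single one tested was TGFBR2, a receptor of transforming growth factor beta. It held 6, 4 and 6 sites in the WT_PBat libraries and a median of 1, at most 3, in the shallow piggyBac ones. It was higher in WT_PBat by 1.93 ± 0.58 (log2, SE; limma adjusted p = 0.017), and the call was lost without replicate 1 or replicate 3 of WT_PBat or with the pair averaged. With 1 gene tested per list, against a median change of 0.06 over all genes, neither list can be described as a group.

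Over the 9 group means, 5 genes followed the site share of VMP1 most closely among 7523 compared: TRIOBP (Pearson r = 0.990), HOXA10-HOXA9 (0.990), CARM1 (0.989), CUEDC1 (0.989) and EPHA2 (0.987). All share with VMP1 low values in the deep groups and high values in the symmetric and WT_PBat groups, and the deep groups also differ from the rest in library size. In all, 139 genes had an r above 0.9. In CUEDC1, on chromosome 17 as well, the group means ran from 1.43 sites per 10000 in WT_rePB to 10.8 in WT_PBat, with 9.89 in sym_rePB.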

How the data were processed

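Insertions were read from RNA of transfected HCT116 cells. Per the submitters' processing notes, cutadapt 3.4 and HISAT2 2.2.1.0 were used and hg38 and GRCh38.p5 are named; the peak caller and the handling of duplicate reads are not given in the sources used here. The authors deposited 1 headerless peak list per library, with summed and maximum read coverage (signal, unscaled, height at least 5), peak width and 1 constant per file, read here as the library's total reads, which no source states. Coverage comes from PCR reads, so intervals cover counting error only.

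Sites were taken as the 5′ edge of a peak, on the minus strand shifted by 3 bases. Gene positions and sequences were from RefSeq (GRCh38.p14); exons and introns were not used. Density, position, strand and height were compared over libraries with two-sided exact permutation tests (scipy 1.17.1), 3 against 12, adjusted over 5 measures (Benjamini-Hochberg). Protein-coding genes with at least 10 sites were fitted with limma 3.58.1 (R 4.3.3) on log2((sites + 0.5)/(library sites + 1) × 10000), tested on simulated data, where at a 4-fold change 73% of raised and 40.8% of lowered genes were recovered. The changed genes were drawn from those with the most expected sites. Counts were Poisson draws without added spread between libraries or groups, so these rates do not hold for genes with fewer sites or for linked libraries. Replicate numbers did not pair the libraries. Genes named were VMP1, MIR21, the protein-coding flank genes, the 5 closest in site share over the groups (mean of at least 3 sites per library) and list genes past the threshold; others were named after their values were seen. The members and lists were chosen with earlier results of these data known. Alternatives covered peak height, depth, site definition, linked and left-out libraries, distance, prior count, filter and scaling. All columns used belong to 1 mapped library; 0 were unmapped.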

Additional observations from a re-analysis of the deposited data

How the results depend on the processing

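Few sites stand behind each value: VMP1 had 9 to 21 sites in a shallow piggyBac library and 18 to 29 in a WT_PBat library. The higher position and the higher share near MIR21 in WT_PBat kept their direction in all alternatives run; at a height of 10 or more the share differed by 52.3 points, with the height minimum scaled to the constant taken as the library's total by 37.6, within 10 kb by 37.6 and within 40 kb by 29.5 (adjusted p at most 0.022, exact permutation test). They missed the threshold where fewer WT_PBat libraries, or 3 against 3, were compared, and kept it when any 1 shallow piggyBac library was left out (adjusted p at most 0.0137). With WT_PBat replicates 1 and 3 averaged, the differences were 0.169 in position and 29.2 points (adjusted p = 0.0549). Against WT_PB, WT_hyPB, WT_rePB, WT_rehyPB, short_PB, short_hyPB, sym_rePB and sym_rehyPB in turn, 3 against 3, the position differed by 0.196, 0.209, 0.224, 0.220, 0.159, 0.171, 0.183 and 0.150, and the share by 37.8, 38.4, 41.6, 40.8, 31.4, 33.9, 28.4 and 29.95 points (exact permutation, adjusted p = 0.148 each). With 1 library left out at a time, the position differed by 0.159 to 0.175, the share by 28.7 to 34.3 points, flank density by 2.17 to 6.52, the plus-strand share by -5.52 to -1.35 points, the height ratio by 0.22 to 0.38 and VMP1 density by 2.29 to 9.44. The plus-strand difference became -22.2 points at a height of 10 or more and 0.24 points against sym_rePB. The VMP1 density difference of 6.33 became -7.87 with the scaled height minimum, which did not equalise site numbers and left no VMP1 site in the deep libraries, and 100.5 per 1000000 of the file total, which is 142666 to 179740 in WT_PBat and 179014 to 256608 in the shallow piggyBac libraries. The causes were not tested.

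Gene counts moved more. The 117 higher and 116 lower genes (50.2% higher) became 97 and 268 with a prior of 2 (26.6%), 115 and 48 with 1 site or more (70.6%), 39 and 33 with 30 or more, 18 and 43 at a height of 10 or more (29.5%), 64 and 43 with replicates 1 and 3 averaged, and 136 and 46 with the prior scaled to library size, chosen after seeing the data (74.7%). Leaving out 1 library gave 42 to 120 higher and 44 to 115 lower. Both counts were lowest without WT_PBat replicate 3 (42 and 44) and replicate 1 (46 and 52). Without replicate 2 they were 77 and 104, and leaving out short_hyPB replicate 2 gave fewer lower genes, 91. Replicate numbers did not pair the libraries (same-number correlations -0.043 to 0.111), and the replicate block gave 122 and 119. WT_PBat against WT_PB over 27 libraries gave 12209 and 368, since a fixed prior is worth more in a small library, and 376 and 7551 with the scaled prior. In these fits 85.2% and 53.7% of the 14770 genes tested were called, and of the 31 autophagy genes tested 29 and 16 and of the 14 miR-21 targets 14 and 7, from which nothing is read about the lists. The autophagy call was lost (0) with a prior of 2, and the target call (0) with 1 site or more and with the averaged pair. With 30 or more sites, or at a height of 10 or more, 0 genes of either list were tested. With 1 library left out the calls of each list ranged from 0 to 1. The autophagy list had 0 genes tested without WT_PBat replicate 1 or replicate 2. The CLTC difference of 0.11 became -0.26 with a prior of 2, -0.031 after centring on the median gene, which shifts the median of all genes from 0.06 to -0.08, -1.39 against WT_PB with the scaled prior, and -0.017 to 0.87 with 1 library left out, being -0.01 without short_PB replicate 1 or 3 and -0.017 without sym_rehyPB replicate 1.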
